A study of Rattus norvegicus with 8 samples.

Results

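The genes described here belong to rat enzyme families known for adding or removing acetyl and methyl groups on the lysines of histone tails. These are histone deacetylases (Hdac), sirtuins (Sirt), lysine acetyltransferases (Kat and Crebbp), methyltransferases (Setd, Ehmt and Ezh) and lysine demethylases (Kdm). Some genes, among them Setd3, Hdac6 and Hdac10, are known for other substrates and are still counted as histone enzyme genes. All genes were picked by gene symbol from the deposited expression table, with 1 probe set per gene. The symbols matched 56 of 21239 genes. Of these, Kat3 is the older symbol of kynurenine aminotransferase III, a metabolic enzyme that shares only the letters of its name with the acetyltransferases, which leaves 55 histone enzyme genes. A row named Ep300 was not analysed here.

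RNA came from micropunches of the dorsal hippocampus, 1 mm3 in volume and taken on both sides with a cryostat, of Sprague-Dawley rats. All animals were young adult males of the first generation and had never received a drug themselves. The sires of the nicotine-sired group had taken nicotine by intravenous self-administration, at 0.03 mg/kg for 60 days, and the sires of the saline-sired group were their yoked saline controls. Each group held 4 Affymetrix arrays, and per the labels each array stood for another father and litter. The labels do not say whether an array held 1 pup or several. Because a punch holds several cell types, fewer cells of a type and less RNA per cell cannot be told apart in any value below.

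Acetylation of histone lysines is laid down by acetyltransferases and taken off by deacetylases, and it accompanies open, transcribed chromatin. Methylation acts by position: on some lysines of histone H3 it marks active promoters, on others it marks silenced or heterochromatic regions, and methyltransferases and demethylases are mostly specific for 1 or a few of these positions. In the adult hippocampus, deacetylases and acetyltransferases are known for their part in long-term memory, and both are studied as routes by which drug exposure alters gene expression.

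Across the 8 arrays, the median log2 signal of the gene-class probe sets lay between 6.25 and 6.35. Genes whose mean signal over all arrays passed 6.30, the median gene-class probe set, were tested, which kept 15161 probe sets and 53 of the 55 histone enzyme genes. Hdac1l, at a mean log2 signal of 6.12 in the nicotine-sired group and 6.11 in the saline-sired group, and Kdm4dl, at 5.37 in both, lay below it. The neuronal markers Rbfox3 and Camk2a were high on all 8 arrays, at 11.4 to 11.9 and 12.9 to 13.2. Nicotine-sired array 4 stood apart from the others in markers that do not belong to the hippocampus proper: its score for choroid plexus and ependymal genes, the mean of their centred log2 signals, was 2.52, against -0.49 to -0.35 on the other nicotine-sired arrays and -0.77 to 0.15 on the saline-sired arrays. Its striatal score was 2.10, against -0.56 to -0.23 and -0.53 to -0.07. Nicotine-sired array 1 stood apart in markers of hippocampal fields. Its CA2 and CA3 score was -1.30, against -0.20 to 0.51 on the other nicotine-sired arrays and 0.03 to 0.27 on the saline-sired arrays. Its dentate granule cell score was -1.10, against -0.19 to 0.08 and -0.04 to 0.64, and its CA1 score, at 1.86, was the highest of all arrays. Among the saline-sired arrays, array 1 had the highest choroid plexus score, and Ttr, the main choroid plexus transcript, read 10.55 there and 8.08 on saline-sired array 2, against 13.07 on nicotine-sired array 4 and 5.54 to 6.20 on the remaining 5 arrays.

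One histone enzyme gene passed the test. Hdac11 rose 1.57-fold in nicotine-sired offspring, and no other tested gene passed at an adjusted p of 0.05. With limma and Benjamini-Hochberg adjustment over all 15161 probe sets, 2.06% of probe sets passed in either direction, 1.18% as higher and 0.884% as lower, so that 1 called gene of 53, or 1.89%, lay near the background. Most of the group differences were small. The median difference over the 53 genes was 0.05 log2 units, against 0.02 over all tested probe sets, the range ran from -0.18 to 0.65, and 32 genes differed by less than 0.1 in either direction.

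Hdac11 is the only class IV deacetylase, a small nuclear and cytoplasmic enzyme that removes long fatty acyl groups from lysine more efficiently than acetyl groups. Its log2 signal was 10.86, 10.17, 10.42 and 10.36 on nicotine-sired arrays 1 to 4 and 9.74, 9.91, 9.66 and 9.88 on saline-sired arrays 1 to 4. All 4 nicotine-sired arrays lay above all 4 saline-sired arrays, and nicotine-sired array 1 was the highest. The group means were 10.45 ± 0.29 and 9.80 ± 0.12 (SD, n = 4 each), a difference of 0.65 ± 0.13 (SE) with a 95% interval of 0.36 to 0.95 and an adjusted p of 0.0430 by limma. The authors' deposited table gave this gene an adjusted p of 0.00247. The limma call was close to the threshold and depended on single arrays. It held without nicotine-sired array 1, where the difference was 0.52 with an adjusted p of 0.0467, and without nicotine-sired arrays 2 and 4. It was lost without nicotine-sired array 3, at an adjusted p of 0.0995, and without saline-sired array 1 (0.128), array 2 (0.107), array 3 (0.105) or array 4 (0.0658), while the difference itself stayed between 0.52 and 0.75 over these 8 fits. With all arrays, the call was also lost with no filter on low signal (adjusted p = 0.0585), without the eBayes trend (0.0505) and with the litter number as a block (0.105). With a score of CA1 pyramidal neuron markers in the fit the difference was 0.27 (adjusted p = 0.634), and with an oligodendrocyte marker score it was 0.52 (0.687).

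**Figure D1:**
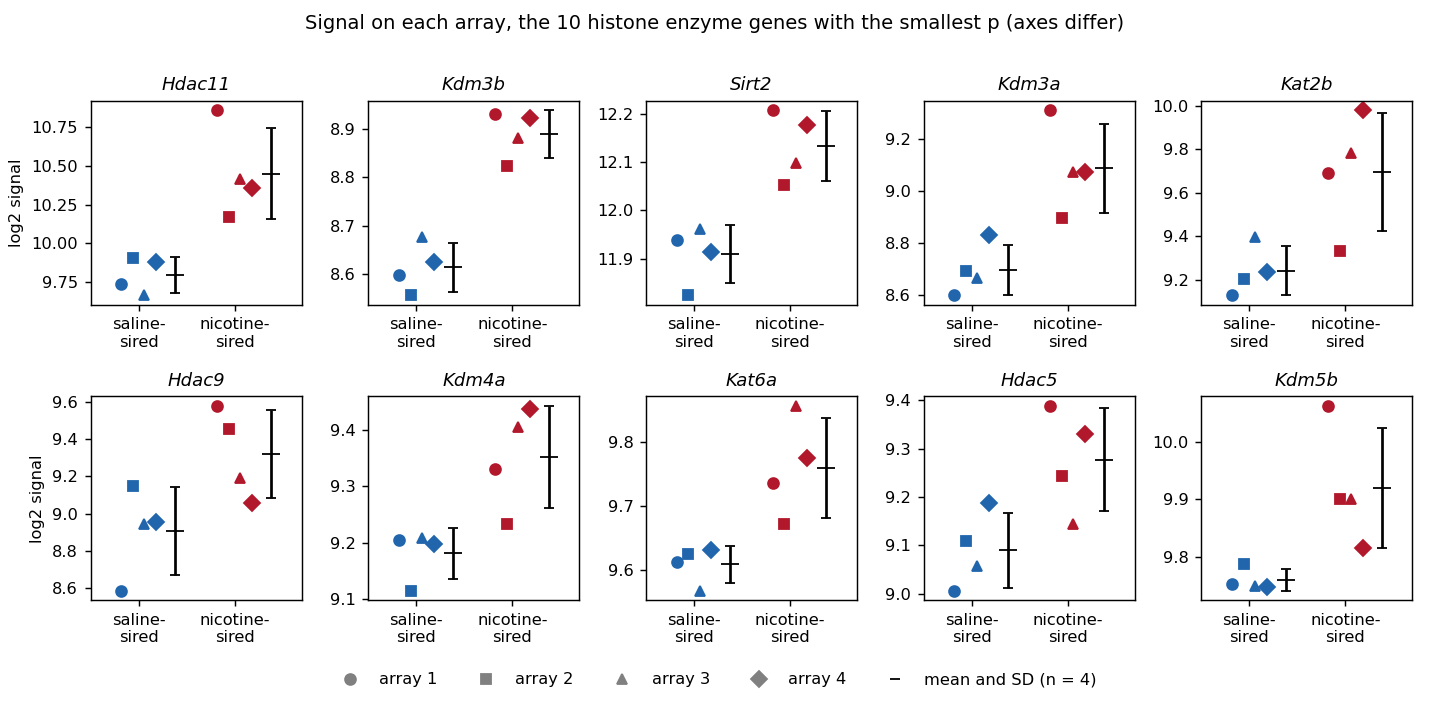
Log2 signal of the 10 histone enzyme genes with the smallest p on each of the 8 arrays (vertical axes, which differ between panels), with the mean and SD of each group (n = 4); marker shapes number the arrays. Hdac11, Kdm3b, Sirt2, Kdm3a, Kdm4a, Kat6a and Kdm5b have no overlap between the groups, while Kat2b, Hdac9 and Hdac5 overlap.

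The other class I and class II deacetylases split in direction. Class I holds the nuclear enzymes that work in corepressor complexes, and here Hdac1 was higher by 0.19 ± 0.10 (adjusted p = 0.271) while Hdac2, its close homologue and partner in the same complexes, had a difference of -0.15 ± 0.07, with an adjusted p of 0.204. Hdac3, the catalytic subunit of the NCoR and SMRT corepressor complexes and the class I gene with the highest signal, differed by -0.03 ± 0.06 (adjusted p = 0.794), and Hdac8 by 0.04. The median of the 4 class I genes was 0.0045. Hdac1l, a further class I gene, was not tested. Hdac8, like Hdac6 and Setd3, has a second locus listed for its probe set, so that part of the signal may come from another transcript.

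Class IIa deacetylases shuttle between cytoplasm and nucleus in an activity-dependent way and hold MEF2 transcription factors in a repressed state. Hdac9 read 9.58, 9.45, 9.19 and 9.06 on the nicotine-sired arrays and 8.58, 9.15, 8.94 and 8.95 on the saline-sired arrays. The groups overlapped, since saline-sired array 2 exceeded nicotine-sired array 4, and the difference of 0.41 ± 0.14 did not pass (adjusted p = 0.128). Hdac5 read 9.39, 9.24, 9.14 and 9.33 on the nicotine-sired arrays and 9.01, 9.11, 9.06 and 9.19 on the saline-sired arrays. Here saline-sired array 4 lay inside the nicotine-sired range, and the difference was 0.19 ± 0.07 (adjusted p = 0.162). Hdac4, the class IIa gene with the highest signal, was lower by 0.10 ± 0.07 (difference -0.10, adjusted p = 0.363), and Hdac7 differed by 0.04. The authors' deposited table called both Hdac9, at an adjusted p of 0.0327, and Hdac5, at 0.0494, as higher. In class IIb, the tubulin deacetylase Hdac6 differed by -0.00095 ± 0.07 with a 95% interval of -0.16 to 0.15, and the polyamine deacetylase Hdac10 by 0.06 ± 0.11 (adjusted p = 0.784).

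The sirtuins are deacylases that consume NAD, and only Sirt2 among the 7 came near the threshold of the limma test. Sirt2 deacetylates tubulin in the cytoplasm as well as histones, and in brain it is abundant in oligodendrocytes and myelin. It read 12.21, 12.05, 12.10 and 12.18 on the nicotine-sired arrays and 11.94, 11.82, 11.96 and 11.91 on the saline-sired arrays. The groups did not overlap, the spread within each was small (SD 0.07 and 0.06), and the difference was 0.22 ± 0.05 with a 95% interval of 0.11 to 0.34 and an adjusted p of 0.0598. Without nicotine-sired array 2, the lowest of its group, the difference was 0.25 and the adjusted p was 0.0428. The authors' deposited table did not call Sirt2, at an adjusted p of 0.138. The other sirtuins differed by between -0.10 and 0.08: Sirt4, a mitochondrial enzyme, had the most negative value, at -0.10 ± 0.08 (adjusted p = 0.457), and Sirt1, a mainly nuclear sirtuin, was higher by 0.08. The nuclear Sirt6 and Sirt7 differed by 0.03 and 0.05, and the mitochondrial Sirt3 and Sirt5 by -0.01 and -0.07.

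All 7 acetyltransferase genes were higher in the nicotine-sired group, none passed, and their median difference was 0.06. For any single gene to be higher is common in these data, as 54.3% of all tested probe sets were. Kat2b encodes PCAF, a histone H3 acetyltransferase and transcriptional coactivator, and read 9.69, 9.33, 9.78 and 9.98 on the nicotine-sired arrays and 9.13, 9.20, 9.40 and 9.24 on the saline-sired arrays. Saline-sired array 3 lay above nicotine-sired array 2, which was the sole overlap. The difference was 0.46 ± 0.13 with a 95% interval of 0.17 to 0.74 and an adjusted p of 0.0834. Without nicotine-sired array 2 it was 0.58 and passed (adjusted p = 0.0248), and without nicotine-sired array 4 it was 0.36. In the authors' deposited table, Kat2b was not called, at an adjusted p of 0.0620. Its paralogue Kat2a, the Gcn5 acetyltransferase, differed by 0.05.

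Kat6a, the MOZ acetyltransferase, read 9.74, 9.67, 9.86 and 9.78 on the nicotine-sired arrays and 9.61, 9.63, 9.57 and 9.63 on the saline-sired arrays. The groups did not overlap, but the difference of 0.15 ± 0.06 did not pass (adjusted p = 0.160). Crebbp, the CREB-binding protein and the acetyltransferase gene with the highest signal, differed by 0.03 ± 0.06, with a 95% interval of -0.10 to 0.16 and an adjusted p of 0.793. Kat5 (Tip60), Kat7 (HBO1) and Kat8 (MOF), catalytic subunits of multiprotein acetyltransferase complexes, differed by 0.06, 0.06 and 0.04.

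**Figure D2:**
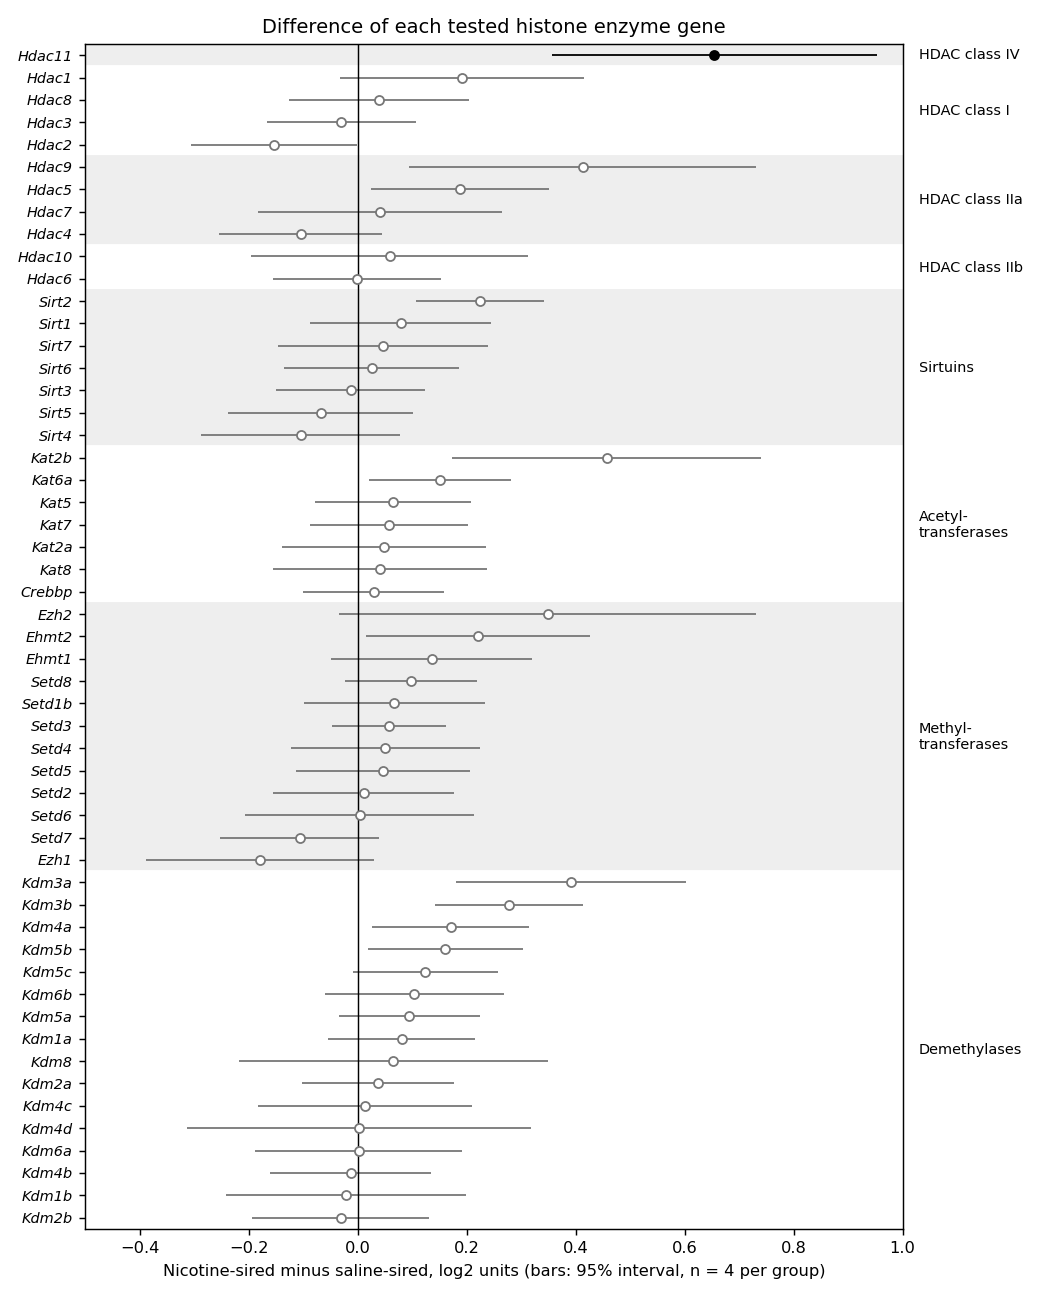
Difference of each of the 53 tested histone enzyme genes, nicotine-sired minus saline-sired, in log2 units (horizontal axis) with its 95% interval (n = 4 per group), ordered by family. Hdac11 at 0.65 lies farthest to the right, all 7 acetyltransferases and 13 of 16 demethylases lie to the right of 0, and most intervals cross it.

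Among the lysine demethylases, 13 of 16 genes were higher, 3 were lower and none passed the limma test, with a median difference of 0.07. The closest were Kdm3b and Kdm3a, which encode JmjC-domain enzymes that remove mono- and dimethyl groups from the heterochromatin-associated lysine 9 of histone H3. Kdm3b read 8.93, 8.82, 8.88 and 8.92 on the nicotine-sired arrays and 8.60, 8.55, 8.68 and 8.62 on the saline-sired arrays. The groups were well separated, with SDs of 0.05 in both, and the difference was 0.28 ± 0.06 with a 95% interval of 0.14 to 0.41 and an adjusted p of 0.0521. Without nicotine-sired array 2 the adjusted p was 0.0453, at a difference of 0.30.

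Kdm3a read 9.31, 8.89, 9.07 and 9.07 on the nicotine-sired arrays and 8.60, 8.69, 8.67 and 8.83 on the saline-sired arrays. Again no array of one group lay inside the range of the other, though saline-sired array 4 and nicotine-sired array 2 were close. The difference was 0.39 ± 0.09 with a 95% interval of 0.18 to 0.60 and an adjusted p of 0.0632, and without nicotine-sired array 2 it was 0.45 with an adjusted p of 0.0354. The authors' deposited table called both genes as higher, with adjusted p-values of 0.0376 for Kdm3b and 0.0035 for Kdm3a.

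The Kdm5 enzymes remove methyl groups from the promoter-associated lysine 4 of histone H3. All 3 Kdm5 genes on the array were higher, by 0.09 to 0.16, and none passed. Kdm5b read 10.06, 9.90, 9.90 and 9.81 on the nicotine-sired arrays and 9.75, 9.79, 9.75 and 9.75 on the saline-sired arrays. The groups did not overlap, and the difference was 0.16 ± 0.06 (adjusted p = 0.165). Kdm5c, an X-linked gene, was higher by 0.12 ± 0.06 without overlap (adjusted p = 0.235), and Kdm5a by 0.09 ± 0.06 with overlap (adjusted p = 0.340).

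The Kdm4 enzymes act on trimethylated lysines 9 and 36 of histone H3, and only Kdm4a stood clear of 0 among them. It read 9.33, 9.23, 9.41 and 9.44 on the nicotine-sired arrays and 9.20, 9.11, 9.21 and 9.20 on the saline-sired arrays. The groups did not overlap, by a narrow gap, and the difference was 0.17 ± 0.06 (adjusted p = 0.153). Kdm4b, Kdm4c and Kdm4d differed by -0.01, 0.01 and 0.0025. Kdm1a and Kdm1b, the flavin-dependent demethylases, differed by 0.08 and -0.02, and Kdm2a and Kdm2b by 0.04 and -0.03 (Kdm2b, the most negative of the family, ± 0.07, adjusted p = 0.820). Kdm6b, which acts on the Polycomb mark at lysine 27, was higher by 0.10, and Kdm8, a JmjC-domain protein, by 0.06. The probe set named Kdm6a differed by 0.0020, but its gene identifier now belongs to the Y-linked paralogue Uty, so which of the paralogues it reads is uncertain.

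The methyltransferases were higher in 10 of 12 genes, with a median of 0.05 and no call. Ehmt2 (G9a) and Ehmt1 (GLP), partner enzymes that methylate lysine 9 of histone H3 and thus oppose the Kdm3 demethylases, were higher by 0.22 ± 0.09 (adjusted p = 0.184) and 0.14 ± 0.08 (adjusted p = 0.336). Both overlapped between groups, and the difference of Ehmt1 was 0.08 without nicotine-sired array 4. The catalytic subunits of Polycomb repressive complex 2 had differences of opposite sign, with Ezh2 higher by 0.35 ± 0.17 (adjusted p = 0.246) and Ezh1, the methyltransferase gene with the highest signal, lower by 0.18 ± 0.09 (difference -0.18, adjusted p = 0.271). Ezh2, the form of dividing cells, read 6.72, 6.76, 7.07 and 7.50 on the nicotine-sired arrays and 6.47, 6.67, 6.87 and 6.64 on the saline-sired arrays. The highest value was on nicotine-sired array 4, which also had the highest choroid plexus and striatal scores, and the difference was 0.19 without it.

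The Setd genes differed little between the groups. Setd8, which monomethylates lysine 20 of histone H4, was higher by 0.10 ± 0.05 (adjusted p = 0.294), and Setd7 was the one lower gene of the 8, at -0.11 ± 0.07 (adjusted p = 0.340). Setd3, known as the actin histidine methyltransferase, was higher by 0.06 ± 0.05 with no overlap, by a gap that 2 decimals do not show (adjusted p = 0.485). Setd2, the methyltransferase of lysine 36, differed by 0.01, and Setd4, Setd5 and Setd6 by 0.05, 0.05 and 0.0035. The probe set named Setd1b, higher by 0.07, carries a gene identifier that now belongs to Setd1a.

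Read against the background, the group as a whole shows a lean to higher values and few genes that stand out one by one. Of the 53 genes, 41 or 77.4% were higher in nicotine-sired offspring, against 54.3% of all tested probe sets. At an unadjusted p of 0.05 there were 12 genes, or 22.6%, against 24.0% of all probe sets, and 11 of these 12 were higher (20.8%, against 13.9%). In 9 genes, or 17.0%, every nicotine-sired array lay above every saline-sired array, against 8.19% of all probe sets. These were Hdac11, Kdm3b, Sirt2, Kdm3a, Kdm4a, Kat6a, Kdm5b, Kdm5c and Setd3, of which 5 are demethylases. None lay wholly below, against 6.15%. The gaps between the groups were 0.0018 in Setd3, 0.022 in Kdm5c, 0.024 in Kdm4a, 0.027 in Kdm5b and 0.0405 in Kat6a, and up to 0.26 in Hdac11. The median of the tested probe sets was itself 8.39 to 8.43 on the nicotine-sired arrays and 8.32 to 8.41 on the saline-sired arrays. Overlap was read from the deposited values, and the small gaps depend on scaling. Setd3 read 10.66 on nicotine-sired array 4, where that median was 8.43, and 10.59 on saline-sired array 1, where it was 8.32. Taken relative to the array medians, the groups thus overlap in Setd3, and likewise in Kdm4a, Kdm5b and Kat6a. The share of all probe sets without overlap was not recomputed in that way. The authors' deposited table called 5 of the 53, or 9.43%, against 8.63% of the same probe sets, all 5 as higher. The genes are not independent of each other, and no test was made over the list.

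The number of higher genes depended on how the arrays were scaled. With each array centred on its own median, 26 genes were higher and 27 lower, with a median of -0.0012 against -0.035 for all probe sets. With quantile normalization the split was 33 to 20, with a median of 0.04 against -0.0061. Centring moves the difference of every probe set by the same amount, so it cannot change the distance between these medians. Quantile normalization can change it, and there the median of the histone enzyme genes also lay above that of all probe sets. The share of all probe sets that were higher was not counted under either scaling. Per array, 42 of the 53 genes lay above their own mean on nicotine-sired array 1 and 35 on array 3, but only 25 and 27 on arrays 2 and 4. On the saline-sired arrays the numbers were 20, 14, 22 and 20. Nicotine-sired arrays 1 and 3 were thus the highest, and 37 of the 53 genes kept their sign in all 8 fits that left out 1 array.

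**Figure D3:**
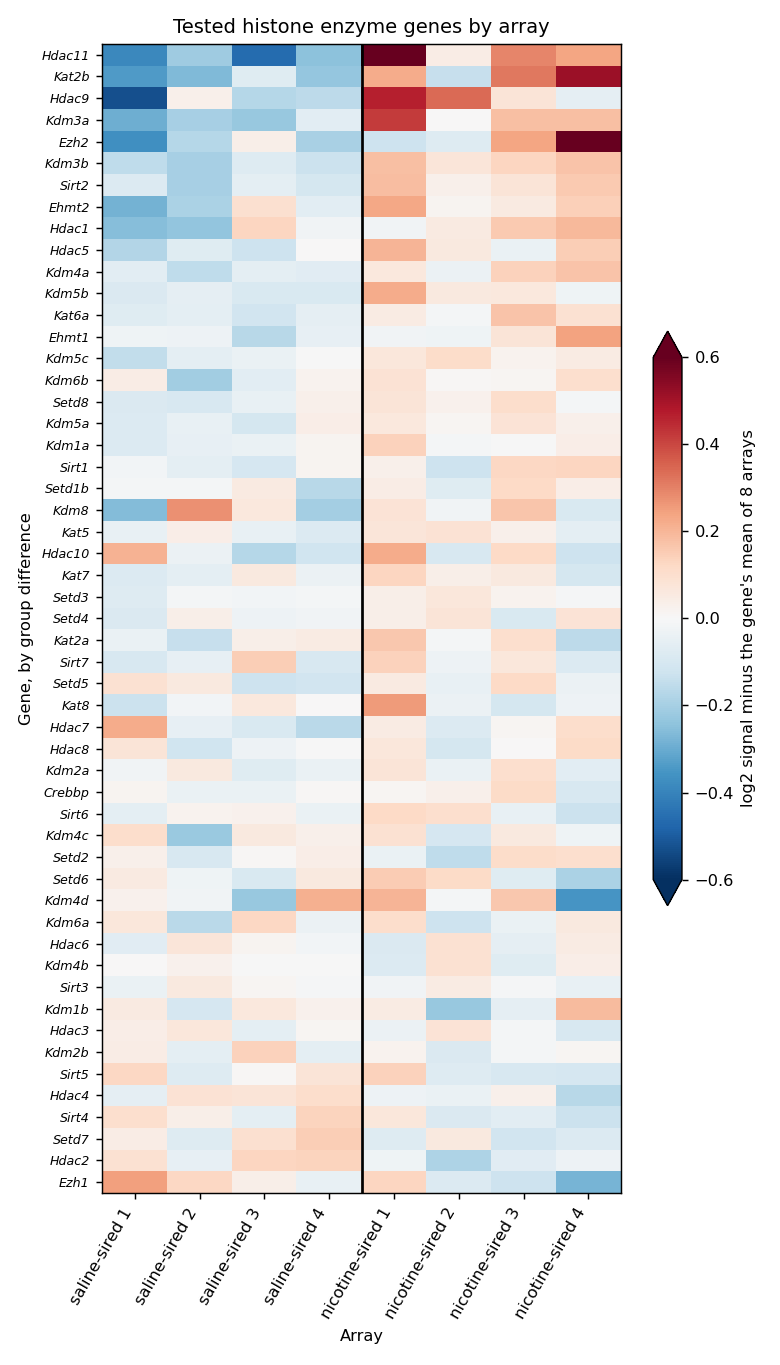
Log2 signal of each of the 53 tested histone enzyme genes (rows, ordered by group difference) on each array (columns), minus that gene's mean of 8 arrays; colours are clipped at 0.6. Nicotine-sired arrays 1 and 3 are above the mean in 42 and 35 genes, and saline-sired array 2 in 14.

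The precision allows a bound on the genes that did not pass. The SE of a difference had a median of 0.07 and a range of 0.05 to 0.17. For 28 of the 53 genes the 95% interval lay inside 0.25 log2 units in both directions, or 1.19-fold. For those genes larger differences lay outside the interval.

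Markers of cell types and hippocampal fields differed between the groups beside these genes. All 17 tested oligodendrocyte markers were higher in nicotine-sired offspring, with a median difference of 0.46 and none called. The summed log2 signal of all 19 oligodendrocyte markers on the array, tested or not, was 186.9 to 195.9 against 182.1 to 189.7. All 9 markers of CA1 pyramidal neurons were higher, with a median of 1.78 and 1 called, and their summed signal was 79.0 to 96.4 against 64.1 to 79.5. All 11 oligodendrocyte precursor markers were also higher, with a median of 0.35 and 2 called. By contrast 1 of 8 dentate granule cell markers, 3 of 9 CA2 and CA3 markers and 2 of 12 pan-neuronal markers were higher. Astrocyte markers were higher in 12 of 14 (median 0.09), microglial markers in 14 of 14 (0.24), endothelial and pericyte markers in 14 of 14 with 1 called (0.25), choroid plexus and ependymal markers in 10 of 11 with 2 called (0.69), striatal markers in 8 of 8 (0.49) and blood markers in 2 of 2 (0.51). The higher striatal score and the higher choroid plexus and ependymal score rested on nicotine-sired array 4. The scores of the other 3 nicotine-sired arrays, given above, did not exceed the highest saline-sired score for either list. Some choroid plexus and ependymal genes were nevertheless higher on all nicotine-sired arrays. Enkur read 9.01, 8.81, 8.57 and 9.58 there and 7.70, 8.18, 7.86 and 7.73 on the saline-sired arrays. Foxj1, Tmem212, Ccdc153 and Folr1 were also higher without overlap. The other tested genes of that list overlapped between the groups. The defining oligodendrocyte marker Mbp was high on every array, from 11.8 to 12.6.

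Adding the CA1 or the oligodendrocyte score to the fit changed the group differences of the enzyme genes to different extents. When the CA1 score was added to the fit, the difference of Hdac11 was 0.27 ± 0.17, that of Kdm3a 0.17 and that of Hdac9 0.14, while Kdm3b stayed at 0.29, Sirt2 at 0.23 and Kat2b at 0.59. With the oligodendrocyte score, the difference of Kat2b was 0.09 ± 0.13 and that of Ezh2 -0.0095, while Hdac11 was 0.52 ± 0.21, Hdac9 0.44, Kdm3a 0.29, Kdm3b 0.20 and Sirt2 0.15. The SEs of Hdac11, Hdac9, Kdm3a, Kdm3b and Sirt2 were larger in both fits than in the main fit. That of Kat2b was larger with the CA1 score (0.21) but not with the oligodendrocyte score (0.125, against 0.127 in the main fit). The difference of Kat2b in the main fit was 0.46. No probe set passed by limma in either fit with a marker score. The unadjusted p was under 0.05 for 1460 probe sets with the CA1 score and 1075 with the oligodendrocyte score. The part of the other marker lists in the differences was not tested.

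**Figure D4:**
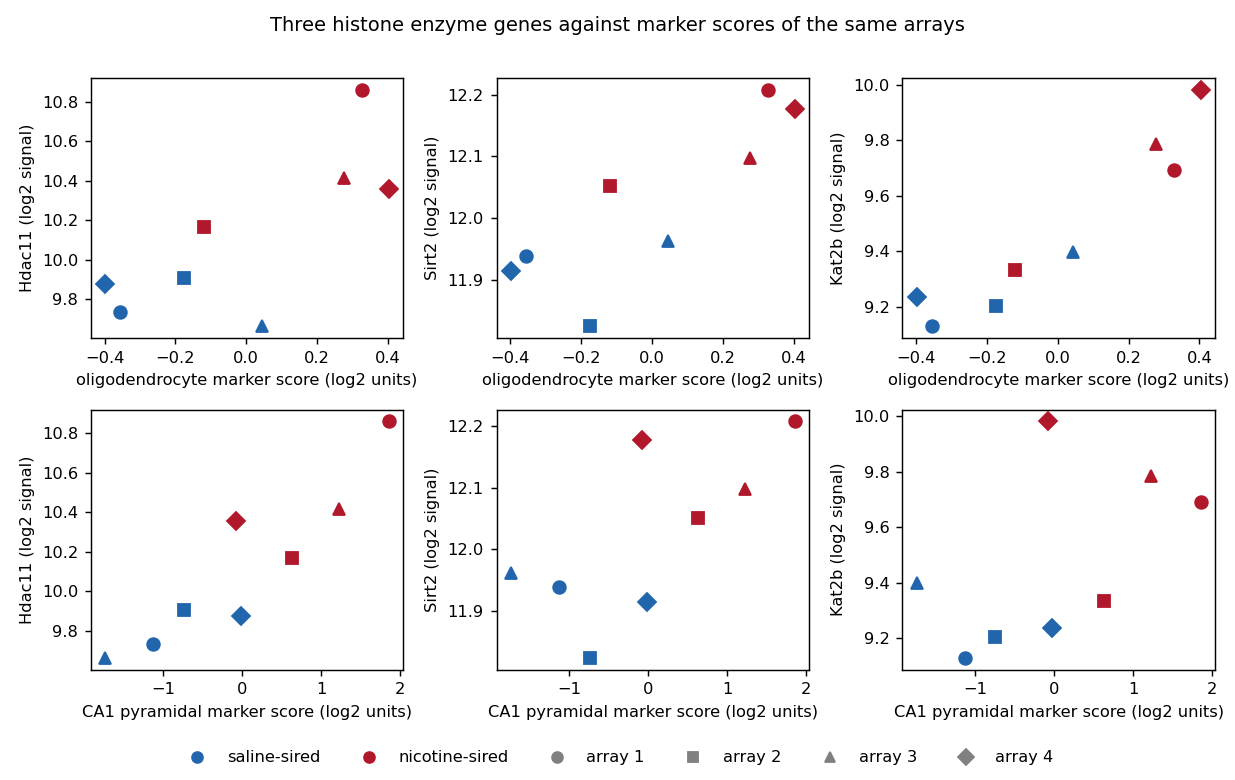
Log2 signal of Hdac11, Sirt2 and Kat2b (vertical axes) against the CA1 and oligodendrocyte marker scores of the same arrays (horizontal axes, log2 units), with shapes numbering the arrays and colours giving the groups. The CA1 score is highest on nicotine-sired array 1, at 1.86, where Hdac11 is also highest, and the oligodendrocyte score is highest on nicotine-sired array 4, at 0.40, where Kat2b is highest.

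Of 175 further chromatin genes, among them partners of these enzymes, 168 were tested. In all, 117 (69.6%) were higher and 51 lower, against 54.3% of all probe sets higher, and the median was 0.05. An unadjusted p under 0.05 was found for 27 genes (16.1%), against 24.0% of all probe sets, and 1 gene (0.595%) passed by limma, against 2.06%. That gene was Tbl1x, a subunit of the NCoR and SMRT corepressor complexes that carry Hdac3. It read 9.86, 9.77, 9.67 and 9.71 on the nicotine-sired arrays and 9.36, 9.43, 9.37 and 9.55 on the saline-sired arrays. The groups did not overlap, and the gene rose by 0.32 ± 0.07 (adjusted p = 0.0476). The call held without nicotine-sired array 4 (adjusted p = 0.0409) and was lost without nicotine-sired arrays 1 (0.0935), 2 (0.0576) and 3 (0.0887) and without saline-sired arrays 1 (0.133), 2 (0.123), 3 (0.117) and 4 (0.0547).

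By role, 26 of 37 corepressor subunits were higher, as were 21 of 28 Polycomb and COMPASS subunits, 21 of 28 bromodomain and other acetyl-lysine readers, 10 of 11 further demethylases and JmjC proteins, 13 of 21 further methyltransferases, 20 of 34 further acetyltransferases and partners, and 6 of 9 arginine methyltransferases. Group medians lay between 0.03 and 0.10. Outside the corepressors none passed. The smallest p in each group belonged to Jarid2, a Polycomb repressive complex 2 partner, higher by 0.34 ± 0.09 (adjusted p = 0.0673); to the reader Cecr2, at -0.56 ± 0.15 (0.0814); to the demethylase Phf8, at 0.35 ± 0.11 (0.0998); to the acetyltransferase partner Ing5, at 0.29 ± 0.09 (0.101); to the methyltransferase Smyd3, at -0.16 ± 0.06 (0.150); and to the arginine methyltransferase Prmt6, at -0.20 ± 0.08 (0.162).

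The promoters of the 4 genes that followed Hdac11 in p are given so that their composition can be compared, as all 4 were higher in nicotine-sired offspring. Each is the RefSeq window of 250 bases before to 50 after the annotated start, in build GRCr8, read 5′ to 3′ on the strand of the gene. Capitals mark GC boxes (GGGCGG, or CCGCCC on the other strand) and CCAAT boxes (CCAAT, or ATTGG on the other strand). Letters of the 2 motifs can overlap by design, but did not in these windows.
The Kdm3a window is chr4:105233321-105233620 on the minus strand, the first of 2 listed for the gene, with 2 GC boxes, 1 CCAAT box and 24 CpG dinucleotides.
Kdm3a: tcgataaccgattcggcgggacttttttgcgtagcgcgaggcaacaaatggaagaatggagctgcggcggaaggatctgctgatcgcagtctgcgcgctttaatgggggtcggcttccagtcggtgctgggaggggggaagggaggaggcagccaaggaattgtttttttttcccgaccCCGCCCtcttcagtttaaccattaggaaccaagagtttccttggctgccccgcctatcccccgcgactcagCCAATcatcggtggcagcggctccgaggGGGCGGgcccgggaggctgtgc
The Kdm3b window is chr18:26655437-26655736 on the plus strand, with 4 GC boxes, 0 CCAAT boxes and 31 CpG dinucleotides.
Kdm3b: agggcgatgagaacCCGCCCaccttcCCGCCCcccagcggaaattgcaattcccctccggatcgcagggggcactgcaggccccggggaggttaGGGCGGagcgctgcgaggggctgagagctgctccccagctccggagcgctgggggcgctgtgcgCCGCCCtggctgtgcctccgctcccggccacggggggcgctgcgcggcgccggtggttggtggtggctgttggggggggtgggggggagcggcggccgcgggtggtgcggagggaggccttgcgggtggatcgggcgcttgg
The Sirt2 window is chr1:93181222-93181521 on the plus strand, with 0 GC boxes, 2 CCAAT boxes and 19 CpG dinucleotides.
Sirt2: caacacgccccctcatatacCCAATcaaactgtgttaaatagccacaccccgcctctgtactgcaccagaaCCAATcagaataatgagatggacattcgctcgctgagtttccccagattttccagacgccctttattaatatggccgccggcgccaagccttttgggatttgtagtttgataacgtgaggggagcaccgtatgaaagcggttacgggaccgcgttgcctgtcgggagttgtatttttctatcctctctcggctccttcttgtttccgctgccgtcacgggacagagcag
The Kat2b window is chr9:6798895-6799194 on the plus strand, with 1 GC box, 1 CCAAT box and 12 CpG dinucleotides.
Kat2b: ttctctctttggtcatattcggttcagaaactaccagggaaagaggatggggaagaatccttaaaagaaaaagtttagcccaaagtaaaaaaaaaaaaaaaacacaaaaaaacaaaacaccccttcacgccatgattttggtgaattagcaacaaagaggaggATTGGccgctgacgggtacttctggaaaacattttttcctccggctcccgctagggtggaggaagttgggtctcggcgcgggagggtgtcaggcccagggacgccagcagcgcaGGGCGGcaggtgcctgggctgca

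The 4 windows differ in their make-up, with no motif common to all. Across the family, 47 windows of 45 genes were listed. A GC box was present in 33 of them, or 70.2%, against 33.1% of all 33469 windows, and a CCAAT box in 24, or 51.1%, against 37.5%. The letters CACGTG occurred in 7 windows, or 14.9%, against 6.42%, TATAAA (or TTTATA) in 0, against 14.2%, and the full cAMP response element TGACGTCA in 0, against 1.83%. The median CpG count was 25, against 7. These counts describe the letters of the windows and were not tested against expression. The windows compared were all those listed, not only those of genes above the signal filter. Whether the contrasts are particular to this family was not tested.

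**Figure D5:**
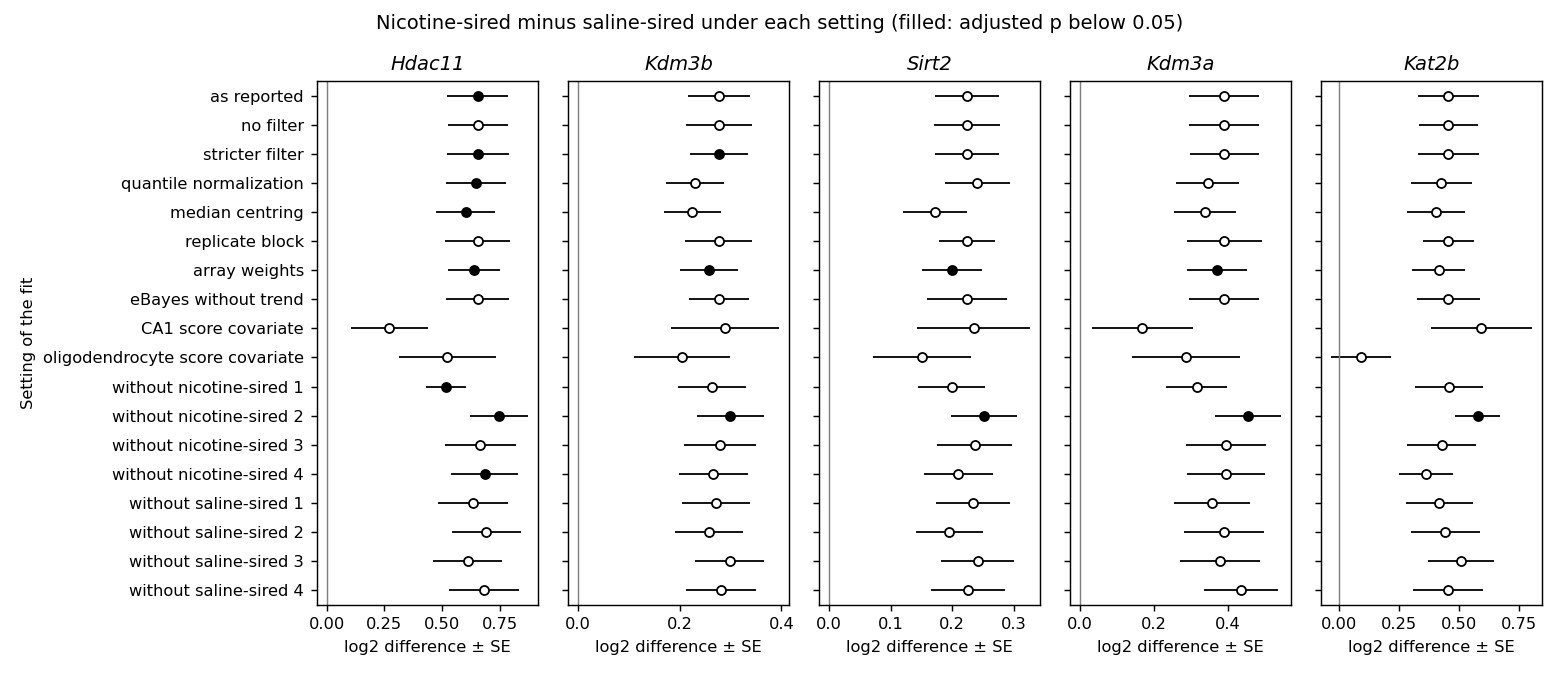
Nicotine-sired minus saline-sired difference ± SE in log2 units (horizontal axes) for Hdac11, Kdm3b, Sirt2, Kdm3a and Kat2b under each setting of the fit (vertical axis); filled points have an adjusted p below 0.05. All differences lie above 0, and the filled points are most frequent for Hdac11 and without nicotine-sired array 2.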

How the data were processed

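Per the labels' protocols, biotinylated cDNA from total RNA was hybridised to Affymetrix arrays. The authors deposited log2 signals per probe set for 8 arrays, in 2 tables that differed by at most 0. MAS5 is named in the submitters' processing notes. The labels and headers do not state how signals were summarised and normalized, the array model or the authors' test. The deposited analysis table also holds, per the file headers, the authors' raw and step-up p-value, the nicotine to saline ratio, a signed fold score that was not used, and group means. The array number limits the precision.

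Of 36685 probe sets, 30323 carry a gene class, and those with a mean log2 signal over 8 arrays above 6.30 (15161) were tested. Differences were fitted in limma 3.58.1 (R 4.3.3) with lmFit and eBayes with trend, 2 groups of 4 arrays, and Benjamini-Hochberg adjustment over all probe sets tested. On simulated data of 15161 probe sets with 200 changed by 1 log2 unit, 92.2% were recovered at 5.42% false calls over 20 draws. The simulated noise was independent between probe sets, whereas whole marker lists shifted together on single real arrays. The share of false calls may therefore not carry over to the real arrays. Recovery of smaller changes, such as those of the histone enzyme genes, at most 0.65, was not simulated. Gene identifiers of 55 of the 56 rows matched RefSeq, and 5 carry another symbol there (Kat3, Kdm4dl, Kdm6a, Setd1b and Setd8).

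The members and gene lists were chosen with earlier results of these data known. Named are called genes, the 20 with the smallest p, the member with the highest signal and the extremes of each family, genes without overlap between groups, and those below the filter; other members named to complete a family were chosen after their values were seen. Alternatives changed the filter, the normalization, the array weights, the eBayes trend, the litter number as a block, marker scores as covariates and each array in turn.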

Additional observations from a re-analysis of the deposited data

Results flagged for a closer look

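In each group of 4 arrays, a value far from the other 3 was searched for among the 55 histone enzyme genes with Dixon's test, which chance alone passes in about 1 of 20 groups, or 5.5 of the 110 examined; 6 were found, none of them in Hdac11. Saline-sired array 2 held 3 of them. Kdm4a was low there, at 9.11 against 9.20 to 9.21, while Kdm4b, at 8.21 against 8.19, and Kdm5b, at 9.79 against 9.75, were high by a few hundredths of a log2 unit. Ehmt1 was low on saline-sired array 3, at 7.60 against 7.72 to 7.74, and Setd3 on saline-sired array 1, at 10.59 against 10.66. Sirt5, a mitochondrial desuccinylase, was high on nicotine-sired array 1, at 9.60 against 9.36 to 9.39.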

How the results depend on the processing

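Of 471 recomputed values of 28 named genes, 438 kept their direction and side of the threshold, 10 lost the call, 8 gained it and 15 changed sign. Called by limma were, of all probe sets (313), the histone enzyme genes (1) and the wider chromatin genes (1): 155, 0 and 0 with no filter; 181 and 2 with a filter at the 75th percentile; 1201, 4 and 3 with array weights; 0 of either list with eBayes without trend; 0 of the wider list with median centring; and 0 of each with either marker score as covariate. At an unadjusted p under 0.05 the histone enzyme genes numbered 11 with no filter, 11 without trend, and 5 and 1 with the CA1 and oligodendrocyte scores. The authors' adjusted p called 5 histone enzyme genes. Without 1 array, the counts ran from 0 to 737, 0 to 5 and 0 to 3. Without nicotine-sired array 3 or any 1 saline-sired array, no histone enzyme gene was called, with 8 to 11 at an unadjusted p under 0.05. The median difference of the histone enzyme genes was -0.0012 with median centring and 0.03 to 0.07 without 1 array. The adjusted p of Hdac11 ran from 0.0195 with array weights to 0.687; it was 0.0585 with no filter and 0.0505 without trend.

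With the litter number as a replicate block, 0 probe sets of any list were called, against 3326 of all probe sets and 13 histone enzyme genes at an unadjusted p under 0.05, and Hdac11 had an adjusted p of 0.105. Whether equal numbers mark yoked pairs was not settled. The deviations of same-numbered arrays correlated at -0.141, 0.181, -0.0521 and -0.168, and 2 of 8 arrays were closest to their own number. So few correlations cannot exclude a pairing.

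Among the 28 named genes, of which only Hdac11 was called in the main fit, signs changed only in genes with no call. Over all 53 genes, median centring moved the split from 41 higher and 12 lower to 26 and 27, so unnamed genes also changed sign. Without 1 array, the differences ran from -0.0051 to 0.066 for Crebbp, -0.0053 to 0.14 for Hdac10, -0.032 to 0.028 for Hdac6 and -0.057 to 0.0097 for Kdm2b. Crebbp was -0.023 with median centring and -0.055 with the CA1 score, and negative without nicotine-sired array 3. Hdac10 was -0.13 with the CA1 score and negative without nicotine-sired array 1. Hdac6 was 0.086 and 0.023 with the CA1 and oligodendrocyte scores, and 0.028, 0.016, 0.023 and 0.0038 without nicotine-sired arrays 1 and 3 and saline-sired arrays 2 and 3. Kdm2b was 0.050 with the CA1 score and 0.0097 without saline-sired array 3. With the oligodendrocyte score, Ezh2 was -0.0095 and Hdac3 0.078. The cause of these shifts was not tested. Averaging probe sets per gene gave the same values, since each gene had 1.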

Other observations

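Several pairs of homologous enzymes had differences of opposite sign or unequal size. The ratio within an array removes any scaling common to both genes. The pairs were chosen after their values were seen, so these are descriptions. The log2 signal of Hdac1 minus that of Hdac2 was -0.80, -0.57, -0.59 and -0.58 on the nicotine-sired arrays and -1.15, -0.996, -0.81 and -0.97 on the saline-sired arrays. The ratio was higher by 0.34 with no overlap, by a gap of less than 0.01 between nicotine-sired array 1 and saline-sired array 3. The same subtraction for the class IIa deacetylases Hdac9 and Hdac4 gave 0.36, 0.24, -0.09 and -0.03 against -0.61, -0.19, -0.38 and -0.40, a shift of 0.52 with no overlap, and for Hdac5 and Hdac4 a shift of 0.29 with no overlap. For Ezh2 and Ezh1 the shift was 0.53, for Kat2b and Kat2a 0.41, for Kdm3a and Kdm3b 0.11, for Ehmt2 and Ehmt1 0.09 and for Kat6a and Kat7 0.09, all with overlap.

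The kynurenine aminotransferase listed as Kat3 differed by 0.12 ± 0.11 (adjusted p = 0.529 by limma). Rest, the repressor of neuronal genes, which recruits deacetylases through its corepressors, was higher by 0.46 ± 0.14 (adjusted p = 0.0944 by limma). It read 7.81, 7.76, 7.59 and 8.12 on the nicotine-sired arrays and 7.10, 7.26, 7.48 and 7.57 on the saline-sired arrays, with no overlap. Among the acetyltransferase partners, Hat1, which acetylates newly made histone H4, was higher by 0.24 ± 0.08 (adjusted p = 0.111 by limma). It read 9.07, 9.14, 9.23 and 9.28 on the nicotine-sired arrays and 8.86, 8.84, 8.99 and 9.08 on the saline-sired arrays, where nicotine-sired array 1 and saline-sired array 4 were level. Rest and Hat1 had the second smallest p of their lists. In the other lists the gene at that rank was lower for Zmynd8, at -0.24 ± 0.07 (adjusted p = 0.102 by limma), and Suz12, at -0.22 ± 0.10 (0.205). It was higher for Setmar (0.26), Phf2 (0.20) and Prmt5 (0.10).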
